A study of Drosophila melanogaster with 2 samples.

Results

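The 200 strongest Rel-GFP peaks were the first 200 of the peaks that the authors kept after the irreproducible discovery rate (IDR) procedure on build dm6, ordered by their deposited signal value. The other 1933 kept peaks are called the lower ranks. IDR keeps peaks whose ranks hold up between replicates. The signal is taken here as the peak caller's own enrichment of a region over a control alignment. The peaks came from ChIP-seq with an anti-GFP antibody on whole wandering-stage Drosophila melanogaster larvae, males and females pooled, of a transgenic line with GFP (eGFP in the sample description) fused to the C terminus of Rel. Both libraries were biological replicates of 1 group, with the labels' numbers 2 and 3. The labels name no infection, no second genotype and no tissue, so every peak is an average over the cells of the whole animal. The line carries the tag through an insertion that targets Rel, and only protein that still carries the tag can be precipitated.

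Rel (Relish) is the NF-κB factor of the Imd pathway, which in flies senses bacterial peptidoglycan and switches on antimicrobial peptide genes in the fat body and other tissues. It is made as a long precursor with a DNA-binding Rel homology region at its N terminus and an inhibitory ankyrin-repeat region at its C terminus. On activation the precursor is cut, the N-terminal piece enters the nucleus and binds kB sites, and the C-terminal piece stays in the cytoplasm. A tag at the C terminus is therefore on the precursor and on the C-terminal piece.

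The sequence at the summits of the highest-ranked peaks is shown first, because base composition at the summit differed between the strongest and the weaker peaks. Each sequence is the summit with 50 bp on either side, read 5′ to 3′ on the + strand of dm6 from the RefSeq Release 6 assembly. Peaks on 1 chromosome arm and windows that overlap an annotated UTR were passed over. The first 3 are the highest-ranked such peaks with neither GAGAGAG nor CACACACA within 100 bp of the summit, and their capitals mark runs of at least 6 A or T bases.
CG11050 intron, rank 1, chr2L:6612627-6612727: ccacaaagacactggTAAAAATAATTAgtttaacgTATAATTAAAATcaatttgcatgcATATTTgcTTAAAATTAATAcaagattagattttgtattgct
ush intron, rank 2, chr2L:480985-481085: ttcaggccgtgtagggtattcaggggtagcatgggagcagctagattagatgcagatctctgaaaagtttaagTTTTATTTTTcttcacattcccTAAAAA
upstream of eEF1gamma, rank 5, chr3R:29214326-29214426: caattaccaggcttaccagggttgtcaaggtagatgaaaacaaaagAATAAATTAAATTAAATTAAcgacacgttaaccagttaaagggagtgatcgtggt
The first of these windows had a GC content of 23.8% and 4 such runs, while GC content was 39.6% at rank 2 and 35.6% at rank 5. The window at rank 5 had a single run, 20 bp long, close to the summit, and the window at rank 2 had its 2 runs to one side. The next 3 are the highest-ranked such peaks with GAGAGAG within 50 bp of the summit. This is the core string bound by GAGA factor, which the gene Trl encodes. Capitals mark the string on either strand.
Lk6 intron, rank 11, chr3R:11761032-11761132: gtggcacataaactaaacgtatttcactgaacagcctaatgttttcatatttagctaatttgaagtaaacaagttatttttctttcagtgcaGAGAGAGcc
Syp promoter, rank 25, chr3R:20778687-20778787: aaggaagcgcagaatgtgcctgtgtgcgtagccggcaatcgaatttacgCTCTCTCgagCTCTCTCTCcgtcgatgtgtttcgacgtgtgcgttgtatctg
Kal1 promoter, rank 43, chr3R:24141241-24141341: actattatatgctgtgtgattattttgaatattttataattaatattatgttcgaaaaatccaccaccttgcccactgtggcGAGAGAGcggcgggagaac
At Lk6 and Kal1 the string lay 42 and 32 bp from the summit. At Syp 3 matches, 2 of them overlapping, began at the summit. The last is the only peak that qualified among those with CACACACA, a CA repeat, this close, and capitals again mark the string.
spen intron, rank 176, chr2L:166608-166708: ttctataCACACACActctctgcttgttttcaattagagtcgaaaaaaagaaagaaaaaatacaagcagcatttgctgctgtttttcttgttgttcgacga

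The signal of the 200 peaks ran from 186 to 674, with a median of 221, and that of the lower ranks from 72.5 to 186, with a median of 95.8. These values chose the peaks and are given as a description. No gap marked the boundary. The last peaks inside were at CG45544 and stg, bbg, pnt and COX7AL2 with a signal of 187 each, and at Egfr (rank 200) with 186. The first peaks outside were nearest tou, Cad86C and CG43248 with 186 each, and tin and fry with 185 each. The deposited −log10 q was 3.00 at all 200 peaks, against a median of 2.43 at the lower ranks. The peaks were also narrower. Only 67 of the 200 (33.5%) had the width of 396 bp that 1882 of the lower-ranked peaks (97.4%) shared, and their median width was 228 bp.

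Replicate ranks were read from the relaxed list of each replicate, which holds 30000 regions, as the rank of the best region that overlaps the peak by at least 1 bp. The pooled list was made from the same reads, so these ranks describe the 200 peaks and are no independent check of them. All 200 lay among the first 1000 regions of each replicate. In replicate 2 their ranks ran from 1 to 582 with a median of 104, and in replicate 3 from 1 to 937 with a median of 104. The first 200 regions of both replicates held 134 of the peaks (67.0%, 95% exact binomial interval 60.0 to 73.5), and the first 400 of both held 188 (94.0%). Replicate 2 alone placed 33 in its first 200, replicate 3 alone placed 30, and neither placed the remaining 3. Of the lower ranks, 6 peaks (0.310%) were in the first 200 of both. Most of these matched the same replicate regions as 1 of the 200. Rank 235, for example, matched those of rank 2 (ranks 2 and 10). Replicate summits lay close to the pooled ones, at a median of 6 bp in replicate 2 and 14 bp in replicate 3, against 10 and 20 bp at the lower ranks.

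**Figure D1:**
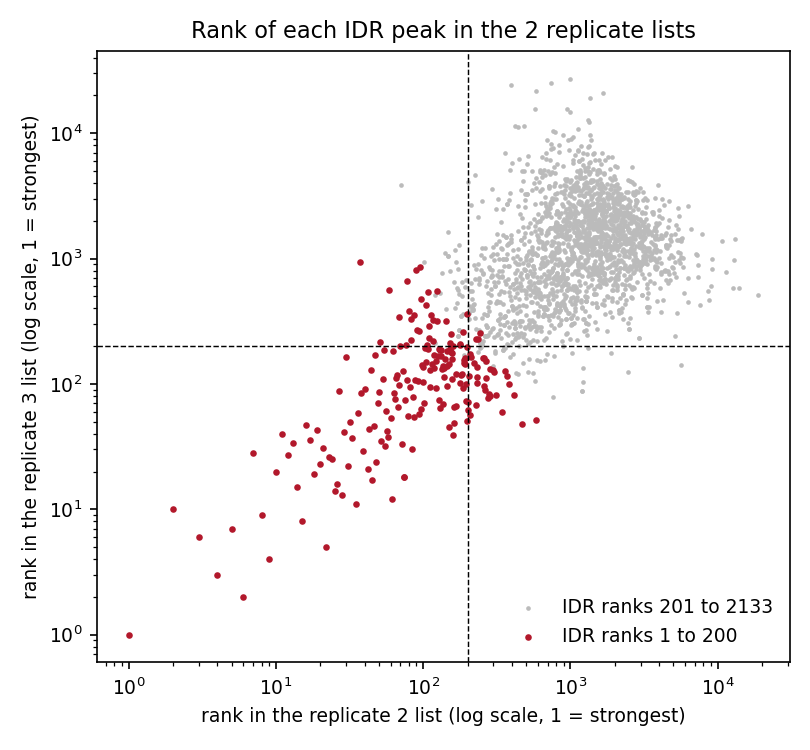
Rank of each IDR peak in the list of replicate 2 (x axis) and of replicate 3 (y axis), both log axes, with ranks 1 to 200 and the lower ranks in separate colours. The 200 strongest peaks fill the lower left corner, and none lies beyond rank 582 in replicate 2 or 937 in replicate 3.

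A few peaks ranked very differently in the replicates. The widest gap was at the promoter of Rtnl1, a reticulon of the endoplasmic reticulum, which ranked 37 in replicate 2 and 937 in replicate 3. In an intron of LpR2, a lipophorin receptor, the ranks were 95 and 857. Near COX7AL2 they were 90 and 816, and in an intron of crol, a zinc finger gene of the ecdysone response, 78 and 658. At the promoter of CG43658 the order was the opposite, 582 in replicate 2 and 52 in replicate 3. The peak at rank 39, at imd, and another of the 200 at Dp1 had summits 200 bp apart and matched a single region in each replicate, so they are not separate in the replicate lists.

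Promoters and introns held most of the summits. A promoter summit, within 500 bp of an annotated transcription start site (TSS) of a protein-coding gene, was found for 95 of the 200 peaks (47.5%, interval 40.4 to 54.7). The share at the lower ranks was 41.0% (793 peaks, interval 38.8 to 43.3), so the intervals overlap. Of all tiles of the genome as wide as 100 bp on either side of a summit, 11.5% had their centre as close to a TSS. Introns held 80 summits (40.0%, against 41.1% of the lower ranks and 39.4% of tiles). Intergenic sequence held 15 (7.50%, interval 4.26 to 12.1), against 13.2% of the lower ranks (11.7 to 14.8) and 27.7% of tiles. Coding sequence held 0 of the 200, which allows a share of up to 1.50% by the limit of 3 counts (exact interval up to 1.83%), and 1 of the lower-ranked summits, against 14.0% of tiles. Another 3 summits lay in a 5′ UTR, 2 in a 3′ UTR and 5 in a non-coding gene. All counts and intervals here describe peaks, which are not replicates, and cover counting error only.

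**Figure D2:**
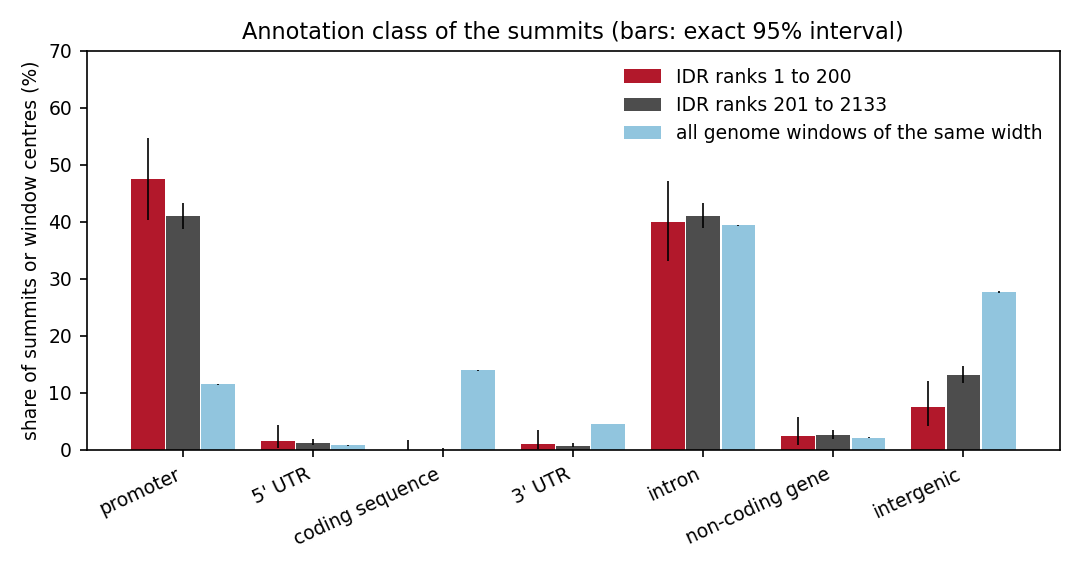
Share of summits (percent, y axis) in each annotation class for ranks 1 to 200, the lower ranks and genome tiles, with exact 95% binomial intervals as error bars. Promoters hold 47.5% of the strongest summits against 11.5% of tiles, and coding sequence holds 0 against 14.0%.

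Within promoters, the strongest summits lay upstream of the start more often than the others did. Their median distance to the TSS was 161 bp, against 152 bp at the lower ranks. Of the 95, 84 (88.4%, interval 80.2 to 94.1) were upstream of the nearest TSS, against 613 of 793 (77.3%, interval 74.2 to 80.2), and the intervals just meet. The stretch from 50 to 250 bp upstream held 68 of the 95 (71.6%) against 409 of the 793 (51.6%). Upstream of 1 gene can be downstream of another, so promoters of a single gene were counted apart. There, 64 of 70 (91.4%, interval 82.3 to 96.8) against 495 of 639 (77.5%, interval 74.0 to 80.6) were upstream, and these intervals do not overlap. When each replicate's own list was ranked instead, the upstream share was 92.0% in its first 200 against 74.7% after it in replicate 2, and 86.8% against 76.5% in replicate 3. Summits within 500 bp of both starts of a divergent gene pair, whether or not between them, made up 25 of 95 (26.3%, interval 17.8 to 36.4). At the lower ranks they made up 138 of 793 (17.4%, interval 14.8 to 20.2). Intronic summits, which by definition lay over 500 bp from a start, were at a median distance of 2352 bp (range 513 to 40607), with 25 of 80 (31.2%) more than 5000 bp away, against a median of 2886 bp and 33.4% at the lower ranks.

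**Figure D3:**
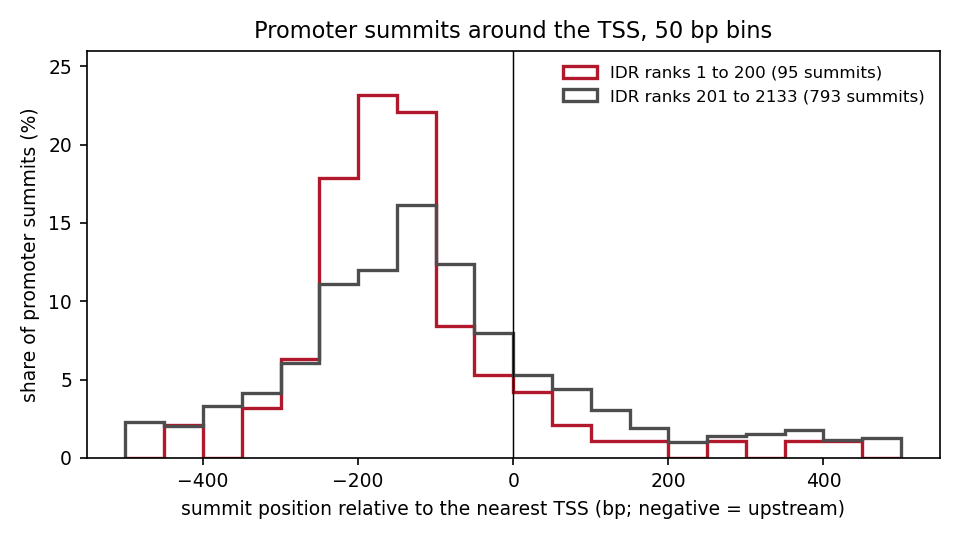
Position of promoter summits relative to the nearest TSS (x axis, bp, negative values upstream) as the percent of promoter summits per bin (y axis) for ranks 1 to 200 and the lower ranks. The 95 strongest summits are concentrated from 50 to 250 bp upstream, where 71.6% of them lie against 51.6% of the 793 others.

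The peaks were spread over the large chromosome arms, with 41 on 2L, 32 on 2R, 54 on 3L, 41 on 3R and 32 on X. Chromosome 4 held 0 of them, which allows a share of up to 1.50%, and 6 of the lower-ranked peaks. Another IDR summit lay within 5000 bp of 100 of the 200, against 45.7% of the lower ranks.

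Of 13945 protein-coding genes, 213 (1.53%) held 1 of the 200 summits inside the gene or up to 1000 bp upstream, and 1485 (10.6%) held any IDR summit. Of the 200 summits, 136 fell to 1 gene, 45 to 2 or more and 19 to none. Of the 213 genes, 87 (40.8%) also held a lower-ranked summit. The genes were long. Their median length was 10034 bp, where all genes had 2166 bp and genes holding a summit of the lower ranks 8046 bp. A long gene has more sequence in which a summit can fall, and the counts by gene group below carry no correction for this. The 22 gene groups together held 330 genes with a median length of 5063 bp. Of these, 38 (11.5%) held 1 of the 200 summits and 105 (31.8%) any IDR summit. The groups were chosen with earlier results of these data known.

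Of 27 Imd pathway genes, 2 (7.41%) held 1 of the 200 summits and 5 (18.5%) any IDR summit. The shares were 1.53% and 10.6% of all genes, and 11.5% and 31.8% of the 330 genes in the 22 groups. The first of the 2 was imd itself, the adaptor protein that gives the pathway its name. It had a promoter summit 91 bp from the TSS at rank 39, on 2R at 18413690. That summit, which Dp1 also held, ranked 74 in replicate 2 and 18 in replicate 3. The other was dnr1, a RING protein that restrains the pathway's caspase Dredd, with an intronic summit at rank 33 and replicate ranks of 61 and 12; the nearest TSS there was that of CG11362. None of 14 antimicrobial peptide genes, the textbook targets of Rel, held a summit of any IDR rank. A list of 14 genes is too short to set this apart from the 10.6% of all genes. Among 19 genes of Toll, the other NF-κB pathway of flies, 2 held 1 of the 200 summits. Gprk2, a G protein-coupled receptor kinase of Toll and Hedgehog signalling, held the summit at rank 7 (ranks 9 and 4), in a promoter it shares with PNPase. GNBP3, which recognises fungal β-glucan, held one at rank 154 (ranks 262 and 89).

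In lists of other stress pathways, 1 or 2 members held 1 of the 200 summits, where 1.53% of all genes and 11.5% of the 330 listed genes did. Of 11 JAK/STAT genes, 1 held such a summit, Ptp61F, a phosphatase that dampens the pathway, at rank 91 (ranks 98 and 142), where the nearest TSS was that of SA2. Of 14 JNK pathway genes, 1 did, puc, the phosphatase that shuts JNK off, with a promoter summit at rank 144 (ranks 131 and 64). Of 11 oxidative stress genes, 2 did. These were foxo, the forkhead factor of insulin signalling and stress, in an intron at rank 28 (ranks 17 and 36), and Cat, the catalase gene, at rank 143 (ranks 341 and 60). Of 16 heat shock genes, 2 did. Hsp27, a small chaperone, had a promoter summit at rank 24 (ranks 24 and 25), and Hsp83, the fly Hsp90, an intronic one (ranks 119 and 133).

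Ecdysone is the steroid hormone whose pulses drive wandering and pupariation. Of 13 nuclear receptor genes of this response, 4 (30.8%) held 1 of the 200 summits and 8 (61.5%) any IDR summit. The shares were 1.53% and 10.6% of all genes, with no correction for gene length, and 11.5% and 31.8% of the 330 listed genes. EcR, the ecdysone receptor, had a promoter summit 208 bp from a TSS at rank 131 (ranks 210 and 164). The receptors Eip78C (rank 72, ranks 88 and 108 in the replicates), Hr4 (79, 112 and 95) and Eip75B (85, 70 and 200) had intronic summits. Of 8 other early regulators, 2 did, crol and tai, a coactivator of EcR. Introns of tai held summits at ranks 59, 139 and 183, and the gene held 9 IDR summits in its 83434 bp.

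Of 23 Polycomb and Trithorax group genes, which keep developmental genes off or on, 6 (26.1%) held 1 of the 200 summits and 8 (34.8%) any. The shares of all genes were 1.53% and 10.6%, again with no correction for gene length. Those of the 330 listed genes were 11.5% and 31.8%. On the activating side were osa (rank 13, ranks 13 and 34 in the replicates) and brm (106, 260 and 96), subunits of the Brahma remodeling complex, trx (129, 93 and 264), a histone methyltransferase, and Trl (99, 115 and 144). On the repressing side were ph-p (17, 14 and 15) and Psc (187, 179 and 208), subunits of a Polycomb repressive complex. Both ph-p, at ranks 17 and 51, and Trl, at ranks 99 and 168, held 2 of the 200 summits. Of 14 insulator and architectural protein genes, 1 did, Chro, a chromatin protein of interbands, at rank 14 (ranks 12 and 27).

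Among 16 genes of RNA-binding proteins known from neurons, 5 (31.2%) held 1 of the 200 summits and 10 (62.5%) any. Over all genes the shares were 1.53% and 10.6%, with no correction for gene length, and over the 330 listed genes 11.5% and 31.8%. Syp, an hnRNP-type protein, held 3, at ranks 25, 119 and 122. The translational repressor pum (rank 128), the neuronal splicing regulator elav (142), the splicing factor mbl (147) and the KH-domain protein mub (190) held 1 each. Their replicate ranks lay between 108 and 237, and the summit at elav was the only one of these 4 in a promoter. Of 15 Dpp (BMP) signalling genes, 3 did. The nuclear factors sbb (rank 31, ranks 27 and 87 in the replicates) and shn (53, 38 and 85) had promoter summits and 16 and 12 IDR summits in all, and Dad, the inhibitory Smad, an intronic one at rank 162 (191 and 160). Of 11 genes of GATA factors and blood cells, 1 did, ush, a cofactor of GATA factors, whose intron held the summit at rank 2 (ranks 2 and 10). Of 10 clock genes, 1 did, vri, a repressor within the clock, with summits at ranks 50 and 180.

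In lists of metabolic and growth genes, 1 or 2 members held 1 of the 200 summits, where 1.53% of all genes and 11.5% of the 330 listed genes did. Of 13 glycolysis genes, 2 did, both in promoters, Gapdh2 at rank 16 (ranks 11 and 40) and Ldh at rank 100 (168 and 67). Of 19 lipid and fat body genes, 1 did, Lpin, a phosphatidate phosphatase of fat storage, at rank 20 (26 and 16). Of 19 insulin and TOR genes, 2 did, foxo and Lk6, a kinase of the translation factor eIF4E, at rank 11 (7 and 28). Of 24 translation factor genes, 1 did, larp, an RNA-binding protein of translation, at rank 10 (10 and 20). Lists of 15 autophagy genes, 12 Hox genes and cofactors and 10 salivary gland genes had no member with 1 of the 200 summits, though 3, 3 and 2 of their members held a lower-ranked one.

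In all, 13 genes held at least 2 of the 200 summits. Among them were imd and Dp1, through the same 2 summits (ranks 39 and 115), which match a single region in each replicate. Besides those already named, the 13 genes were CG32772 (ranks 8 and 136), jim, a zinc finger gene (27 and 76), and Btk, a Tec-family tyrosine kinase (30 and 152). The last were CG43389 (32 and 94), spen, a nuclear RNA-binding regulator (47 and 176), and bves, a Popeye-domain protein (65 and 179). Of the 30 highest-ranked peaks, the remaining nearest starts belonged to cbt (rank 2, in the ush intron), Ugalt, Tina-1, CG31668, CG4004, CG18549, CG9147, CG16753, CenG1A, CG1888, CG14100, SLC5A11 and CG11309, and both replicates ranked each of the 30 peaks 47 or better.

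Base composition at the summit differed between the strongest and the other peaks. GC content in the 50 bp at the summit was 31.1% ± 10.3 (SD over the 200 peaks), against 36.9% ± 12.1 over the 1933 others and 42.2% in the genome. In the flanks 200 bp away it was 46.3% ± 8.11 at the strongest peaks and 43.9% ± 8.26 at the others. The summit was therefore 15.1 ± 12.8 percentage points below its flanks at the strongest peaks. It was lower than its flanks in 174 of 200 (87.0%, interval 81.5 to 91.3), against 65.3% (63.1 to 67.4) of the others. The summits with the highest signal thus sat in a narrow dip of GC content between flanks richer in GC than the genome. The dip was present at promoter summits (29.8%) and outside promoters (32.3%), while lower-ranked summits had 38.2% and 35.9%. In the lists of replicate 2 and replicate 3 the summits of the first 200 regions had 32.9% and 32.3%, against 37.7% and 37.1% for the regions after them in the same list. Narrow peaks had a lower GC content at the summit (29.95%) than the 67 peaks of 396 bp (33.7%), and the part that GC content plays in enrichment, sequencing or peak width was not tested.

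**Figure D4:**
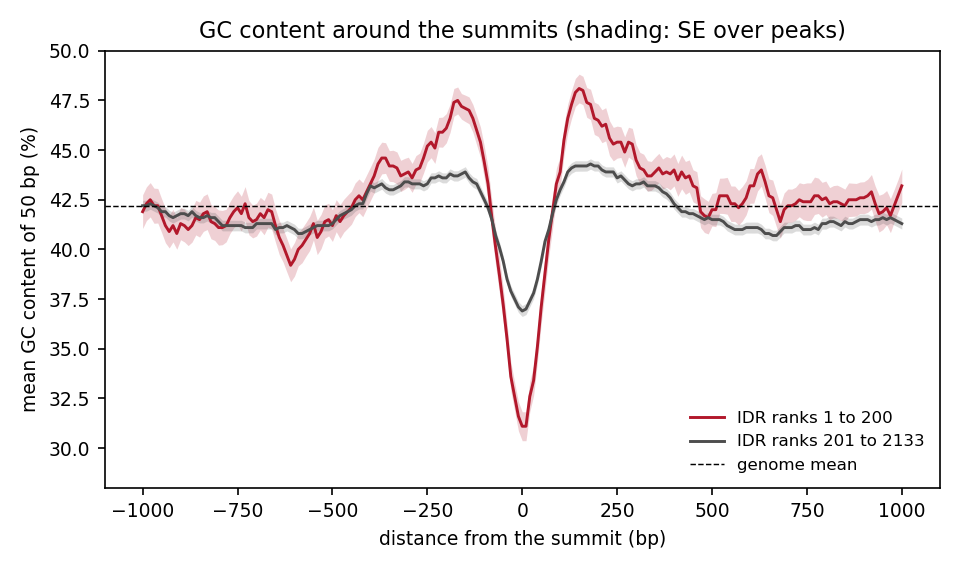
Mean GC content (percent, y axis) in 50 bp windows against distance from the summit (bp, x axis) for ranks 1 to 200 and the lower ranks. The strongest peaks fall to 31.1% at the summit, rise to 47.5% at 170 bp before and 48.1% at 150 bp after it, and the others fall to 36.9% only.

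Short strings followed the same pattern. Of the 2080 6-mers counted on both strands within 100 bp of the summit, the 10 whose share rose most from the lower ranks to the strongest peaks all had at least 5 A or T bases. The first, TTAAAA, was in 107 of 200 windows (53.5%), against 36.5% of the others and 29.1% of tiles. Within 50 bp of the summit the shares were 39.0%, 24.8% and 16.3%. In the first 200 regions of replicate 2 and replicate 3, they were 32.5% and 38.0% within 50 bp, against 23.4% and 22.6% after them. The 10 whose share fell most had at most 4 A or T bases, CGAAAC first, in 4.50% against 13.2%. These strings were picked by this difference, which is given with no test.

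GAGAGAG had nearly the same share near the strongest summits and near the others. It was found on either strand within 100 bp of 22 summits (11.0%, interval 7.02 to 16.2) and of 214 of the 1933 others (11.1%, interval 9.71 to 12.6), against 2.45% of tiles and 3.58% of promoter tiles. Farther out the shares parted. Between 100 and 250 bp from the summit the string was at 54 peaks (27.0%, interval 21.0 to 33.7), against 334 of the others (17.3%, interval 15.6 to 19.0). In replicate 2 the same string was at 60 of the first 200 regions, and at 18.2% of those after them. In replicate 3 the shares were 27.0% and 16.1%. This distance range was chosen after the profile was seen. Long GA runs were counted within 100 bp of the summit only, and there they were seen at lower-ranked peaks. A run of 12 bp or more was at 0 of the 200 (exact interval up to 1.83%), against 49 of the others (2.53%, interval 1.88 to 3.34), and the intervals nearly meet. The longest among the 200, 11 bp, was at LPCAT, followed by 10 bp at CG13323 and CG42327 and 9 bp at Syp and crol.

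CACACACA was less frequent near the strongest summits. It lay within 100 bp of 8 of the 200 (4.00%, interval 1.74 to 7.73), close to the 4.09% of tiles, against 192 of the others (9.93%, interval 8.64 to 11.4). Along the list the share was 4.00% at ranks 1 to 100 and again over the next 100, 7.00% from there to rank 400, 9.00% to rank 800, 9.83% to rank 1400 and 11.3% after that. The difference was smaller in the single replicates, at 7.50% against 11.0% in replicate 2 and 6.50% against 7.66% in replicate 3, and the intervals overlap in both replicates. Within 200 bp on either side of the summit the shares were 19.5% and 19.8%. The longest CA run, 15 bp, was at the promoter of Msr-110. Those at CG32772 and spen were 10 bp long and those at sbb and Cat 9 bp.

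**Figure D5:**
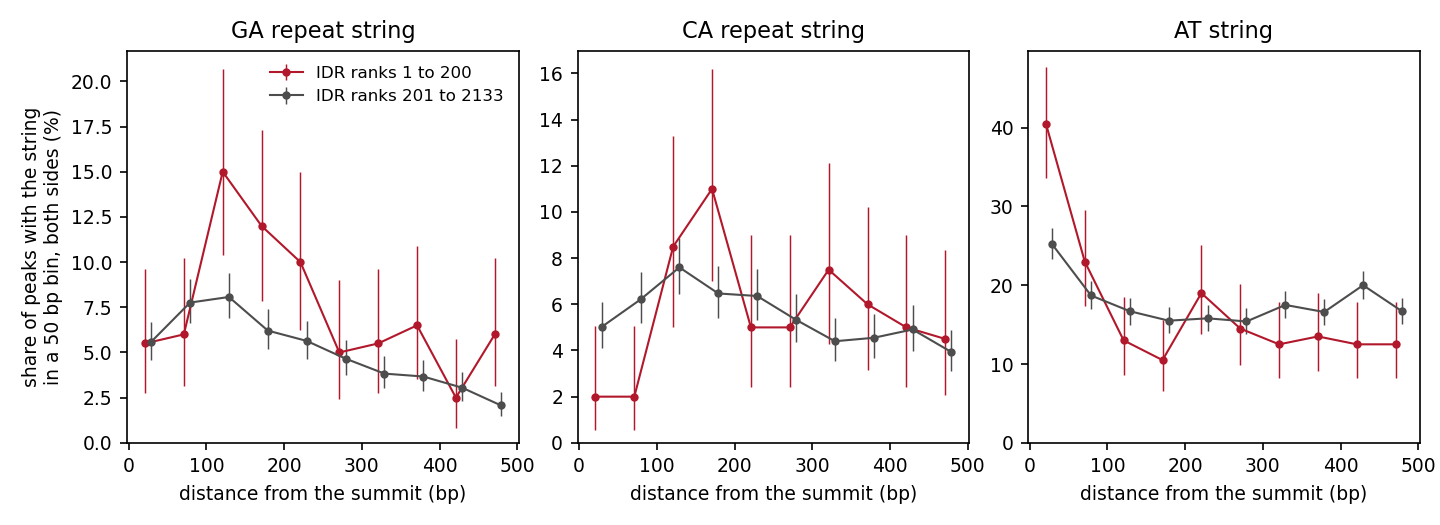
Share of peaks (percent, y axis) with GAGAGAG, CACACACA or TTAAAA by distance of the string from the summit (bp, x axis), for ranks 1 to 200 and the lower ranks. TTAAAA is most frequent in the central bin, 40.5% against 25.2%, whereas GAGAGAG is more frequent at the strongest peaks from 100 to 150 bp, 15.0% against 8.07%.

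Strings for the sites that NF-κB factors bind were rare both at these summits and in tiles. A broad kB string was found on either strand within 100 bp of 2 of the 200 (1.00%, interval 0.121 to 3.57). It was at 18 of the others (0.931%) and 1.71% of tiles. A medium form was at 2 of the 200 (same interval) and 17 of the others, against 1.39% of tiles. A narrow form was at 0 of the 200 (exact interval up to 1.83%) and 3 of the others, against 0.311% of tiles. A form with a centre of A and T was at 1 (interval 0.0127 to 2.75%) and 14, against 0.813% of tiles. Each interval of the 200 includes the tile share, so these counts are too small to set the 200 apart from tiles. GATAAG, read by GATA factors, was at 10.5% and 11.0%, against 8.32% of tiles. GCCAT, the core of Pho sites, was at 25.5% of both, against 35.4% of tiles. TATCGATA, the DRE of housekeeping promoters, was at 1.00% and 0.931%, against 0.564% of tiles and 1.81% of promoter tiles. AGGTCA, a nuclear receptor core string, was at 1.50% and 3.26%, against 5.44% of tiles. A match describes letters in the window only and is no evidence of binding, and its absence shows only that these letters are not there.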

How the data were processed

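The authors deposited peak lists in narrowPeak format for 2 anti-GFP ChIP-seq libraries (sonicated chromatin of 200 to 800 bp, per the labels) and for their pooled reads. In them the authors' signal is taken as a region's enrichment over a control alignment, which was not analysed here. The deposited −log10 q is the peak caller's own. The aligner and the peak caller were not named, and with no read counts the depth is unknown. A summit was a region's start plus its deposited offset. Coordinates are on dm6, counted from 1. Genes came from Ensembl release 115 and sequence from the RefSeq Release 6 assembly, and no region ran past a chromosome end. Where classes overlapped, promoters took precedence, followed by 5′ UTRs, coding exons, 3′ UTRs, introns and genes without a coding sequence. Strings were searched on both strands.

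The peaks were chosen on the pooled signal and are not replicates, so counts of the 200 against the other 1933 of 2133 peaks and exact Clopper-Pearson 95% intervals are given with no p-value. Named genes were those nearest ranks 1 to 30, list members with a summit, genes with at least 2 summits, ranks 196 to 205, and the 5 peaks with the widest replicate gap, longest GA run and longest CA run, besides the genes at the printed sequences. The members, lists and strings were chosen with earlier results of these data known. Older symbols were needed to match 6 list members, and 0 stayed unmatched. Python 3.11.15, numpy 2.4.6, scipy 1.17.1 and matplotlib 3.10.9 were used, and the counting was tested on simulated data.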

Additional observations from a re-analysis of the deposited data

How the results depend on the processing

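No paired analysis was possible because the samples form 1 group. With promoters set at 1000 bp, 57.5% of the 200 summits were in one. GAGAGAG was at 5.50% within 50 bp and 29.0% within 200 bp of the summit, and CACACACA at 19.5% within 200 bp. The share in the first 200 of both replicates was 96.0% for ranks 1 to 100 and 34.2% for ranks 1 to 400. With as many regions of each replicate as the IDR list holds, it was 100% of the 200 and 55.9% of the lower ranks. These shares change with the numbers of regions compared. Taking ranks 1 to 100 or 1 to 400 gave 112 or 380 genes. Settings added after the data were seen concerned GC content at the summit, peak width, upstream share, TTAAAA and GAGAGAG between 100 and 250 bp. GC content at the summit was 30.2% for ranks 1 to 100, 33.0% for ranks 1 to 400, 29.8% in promoters, 32.3% outside them, 33.7% at peaks of 396 bp and 29.95% at narrower ones. In the first 200 regions of each replicate's own list, as given above, it ranged from 32.3% to 32.9%. TTAAAA was within 100 bp of 46.2% of ranks 1 to 400, and of 46.0% to 50% of the first 200 regions of each replicate's own list. The causes of these shifts in composition were not tested. In the first 200 regions of each replicate's own list, the promoter share was 44.0% to 45.5% and GAGAGAG 9.50% to 12.5%. CACACACA was at 6.50% to 7.50% and upstream summits at 86.8% to 92.0%, as given above. These regions are not the 200 peaks with 1 replicate removed. The dm3 lists gave 65.5% in the first 200 of both replicates. Depth limits all ranks by an unknown amount, since the lists hold no read counts.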
